A study of Rattus norvegicus with 18 samples.

Results

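The genes described here encode the proteins of the cytosolic ribosome, together with the copies of those genes that the rat genome carries. A gene was taken where its rat symbol begins with Rpl, Rps or Rplp followed by a number, leaving out the kinases whose symbols begin with Rps6k. The rule found 96 genes with 213 probes, out of 16665 named genes with 21220 probes on the array. Of these, 78 genes (190 probes) are called main genes, and 18 genes (23 probes) are called paralogues because their symbol is that of a main gene followed by l and a number, or by -ps. Rpl3l, Rps27l and Rps4y2 are conserved copies in biological terms, but their symbols place them among the main genes under this rule. The annotation lists 15 of the 18 paralogues as protein coding and 3 as transcribed pseudogenes (Rps2-ps44, Rps4x-ps1 and Rps7-ps20). All 78 main genes were represented by a curated transcript, whereas 9 of the 18 paralogues rested on a predicted one, against 5.25% of the 13051 genes tested. All main genes and 17 paralogues were tested, 95 genes in all; Rps7-ps20 was well above background on 0 arrays.

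Ribosomal proteins are small, mostly basic proteins that fold around the ribosomal RNA of the small subunit (Rps) and the large subunit (Rpl, with the stalk proteins Rplp), and cells make them in matched amounts. Their mRNAs typically begin with an uninterrupted run of pyrimidines, the terminal oligopyrimidine tract, through which the kinase complex mTORC1 and the RNA-binding protein Larp1 set how much of the mRNA is translated. Mammalian genomes also hold many processed copies of these genes that arose by reverse transcription of the spliced mRNA and usually lack the parent's promoter. In hypothalamic neurons, phosphorylation of ribosomal protein S6 downstream of mTORC1 is widely used as a sign of activity.

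A pyrimidine run at the start of the transcript was more frequent among main genes than among paralogues, and the printed genes show it present or absent in both classes. The windows below run from 10 bases before the RefSeq start to 20 bases from it, on the coding strand of assembly GRCr8, and capitals mark the uninterrupted run of C or T that begins at the start itself. Rplp0, a protein of the stalk that recruits elongation factors, lies at chr12:46718371-46718400 (minus strand), and Rps18, a protein of the head of the small subunit, at chr20:4933735-4933764 (plus strand). Rpl35a and Rpl35al1 lie at chr11:81235002-81235031 and chr12:11109035-11109064 (both minus), Rpl27a at chr1:172974563-172974592 (plus) and Rpl27al1 at chr17:58199306-58199335 (minus), and Rpl22 and Rpl22l1 at chr5:168117951-168117980 and chr2:113683186-113683215 (both plus). Rps19 and Rps19l3 lie at chr1:89608678-89608707 and chr1:85738122-85738151 (both plus). Rpl17l5 and Rpl27l2, of which the parents are not shown, lie at chr10:45862420-45862449 and chr1:162566045-162566074 (both minus).
Rplp0: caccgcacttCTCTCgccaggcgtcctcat
Rps18: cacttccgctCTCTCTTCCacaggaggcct
Rpl35a: tcttgccttcCTCTTTCCgccatcttggcg
Rpl35al1: agatgagtacTCCTCTTTCCgccatcttgg
Rpl27a: cttggtgggcTCCTCCCTCTTTCTTTTCTg
Rpl27al1: aagactccttaatgctcagaaagtcatgtt
Rpl22: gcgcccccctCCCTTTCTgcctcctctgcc
Rpl22l1: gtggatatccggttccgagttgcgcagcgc
Rps19: cttgtgcgccCgggaaaccccgtcgttccc
Rps19l3: ggtcgcggctgtgcgcggggccacggggtc
Rpl17l5: gttatcctttataagagttgccttgttcac
Rpl27l2: tgctgttgagTTgggcaaggtcaggaaacc

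A window was matched for 62 main genes and 13 paralogues. A run of at least 5 pyrimidines from the start was present in 33 main genes (53.2%), in 1 paralogue (7.69%) and in 4.75% of 33469 promoters of the table. The 1 paralogue was Rpl35al1, whose run and following bases resemble those of Rpl35a printed above, whereas Rps19, a main gene mutated in Diamond-Blackfan anaemia, lacks such a run at its annotated start. When a run of 8 was allowed anywhere within 10 bases on either side of the start, it was found in 59.7% of main genes, 7.69% of paralogues and 6.92% of all promoters. The letters CTTTC, searched from 10 bases before the start to 12 bases from it on the coding strand, were present in 32.3% of main genes, 7.69% of paralogues and 2.45% of all promoters; on the other strand the shares were 1.61%, 0% and 2.73%. These shares rest on the annotated starts.

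The samples are hypothalamic RNA of 18 male Wistar rats, 9 weeks old, 1 array for each rat. Control rats (6) were left without restraint and without a wheel. Stress rats (6) were restrained for 1 to 1.5 h a day, 5 days a week, for 3 weeks. Rats with stress and exercise (6) were restrained in the same way and had free access to a running wheel for 4 weeks, of which 1 week came before the restraint. Exercise without restraint was not among the groups analysed here. All rats ate and drank freely, were killed with ether followed by decapitation, and were dissected by the same operator.

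Levels are log2 of the processed spot intensity minus the 75th percentile of the array, so 0 is that percentile, and levels are not compared between probes because each probe binds with its own strength. The 75th percentile lay between 423 and 528 intensity units, a share of 63.6% to 77.8% of an array's probes was well above background, and 0 spots were saturated. The arrays lay on 5 slides whose layout overlaps the groups: controls 1 and 2 were on slide 1, controls 3 to 6 on slide 2 and stress 1 to 4 on slide 3, while slide 4 held stress 5 and 6 with stress-with-exercise 1 and 2, and slide 5 held stress-with-exercise 3 to 6. Slides 2 and 4 were scanned on scan day 1 and slides 1, 3 and 5 on scan day 2. Slides 1 to 3 are called slide set 1 (10 arrays) and slides 4 and 5 slide set 2 (8 arrays); each set spans both scan days. No slide set held both control rats and rats with stress and exercise, so for that comparison slide set and group cannot be told apart. Inside the stress group the sets can be compared, as stress 5 and 6 against stress 1 to 4, and that difference is given below. It is slide 4 against slide 3, so slide, slide set and scan day cannot be told apart within the stress group alone. The marker genes fixed for the hypothalamus were present (13 of 14 tested; Otp was not), with a summed level of 8.88 to 9.08 in control, 8.88 to 9.23 in stress and 8.95 to 9.20 in stress with exercise. The tissue is a mixture of cell types, in which fewer cells of a type and less RNA per cell cannot be told apart.

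Main genes varied less over the arrays than paralogues did. The standard deviation over the 18 arrays had a median of 0.077 for main genes, 0.174 for the tested paralogues and 0.134 for all genes. Within groups the medians were 0.073, 0.098 and 0.114, so there the paralogues varied less than all genes. The classes also differed in brightness, with a median level of 6.58 for main genes, 4.04 for tested paralogues and -0.14 for all genes. Spread was not compared at equal brightness. The range from the lowest to the highest array ran from 0.12 to 1.59 log2 units over the main genes (median 0.27), and 76 of 78 stayed under 0.5. The main gene with the range of 1.59 was Rpl3l, the paralogue of Rpl3 known from heart and skeletal muscle, which was dim here (well above background on 12 arrays). Over the 17 tested paralogues the range ran from 0.21 to 3.64 (median 0.52), and 6 spanned more than 1: Rps4x-ps1, Rpl27l2, Rpl39l5, Rpl39l1, Rps19l3 and Rpl17l5. Rps19l3 and Rpl17l5 lay above the 75th percentile on every array, so a wide range was not limited to dim probes. In all, 15 of 17 paralogues were well above background on all 18 arrays, as were 77 of 78 main genes.

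Rats with stress and exercise were set against control rats to see what the interventions changed jointly. Of the 17 paralogues 8 fell, and the main genes moved little. Of the 95 genes, 21 passed at an adjusted p under 0.05 in limma, 10 higher and 11 lower, against 28.0% of all genes (18.1% higher and 9.84% lower). Another 2 paralogues rose, and among the 78 main genes 8 rose and 3 fell, a share below that of all genes. Without scaling to the 75th percentile the 21 genes became 14, of which 1 was higher and 13 were lower. The median difference was -0.20 for paralogues, 0.04 for main genes and 0.05 for all genes. Differences beyond 0.5 log2 units were found in 5 paralogues, 0 main genes and 5.50% of all genes.

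Rpl27l2, a copy of the large-subunit gene Rpl27, was among the paralogues with the largest differences. Its level (lowest, median, highest) was -3.14, -2.98 and -2.83 in control, -5.29, -2.98 and -2.75 in stress, and -6.05, -5.29 and -4.83 in stress with exercise. All rats with stress and exercise were below all controls, and the stress group split: stress 1 to 4 lay between -3.01 and -2.75, overlapping the controls, and stress 5 and 6 between -5.29 and -5.08, among the rats with exercise. The difference between stress with exercise and control was -2.37 ± 0.40 (SE, n = 6 per group, limma adjusted p = 0.0008), a 5.17-fold lower signal. The probe was well above background in 6 of 6 control rats, 5 of 6 stress rats and 4 of 6 rats with stress and exercise, so the fold rests partly on values near background. A second, dimmer probe of the same gene, well above background on 9 arrays, gave -0.11.

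Rpl39l5, a copy of Rpl39, whose product lines the exit tunnel of the large subunit, showed the same split. Levels were -2.44, -2.14 and -1.95 in control, -4.71, -2.25 and -2.04 in stress, and -4.73, -4.41 and -3.91 in stress with exercise. Stress 1 to 4 ran from -2.32 to -2.04, overlapping the controls, while stress 5 and 6 ran from -4.71 to -4.22, inside the range of the rats with exercise. Its difference from control was -2.22 ± 0.40 (SE, limma adjusted p = 0.0010), 4.67-fold lower.

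Rps4x-ps1, a transcribed pseudogene of the X-linked small-subunit gene Rps4x, was dim. Levels were -4.61, -4.46 and -4.19 in control, -7.65, -4.91 and -4.67 in stress, and -7.83, -6.51 and -6.02 in stress with exercise. It was well above background in 6 of 6 control rats, in 3 of 6 stress rats and in 0 of 6 rats with stress and exercise, so only a bound applies: the signal was at least 3.18-fold lower than in control (fitted difference -2.34 ± 0.45, SE, limma adjusted p = 0.0017). The probe was kept for testing through the control group alone, where it was high. Its p and its place among the paralogues that fell are therefore not independent of that filter. Rps4x itself differed by 0.09 (limma adjusted p = 0.071).

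Rps19l3, a copy of the small-subunit gene Rps19, was bright and fell. Levels were 3.09, 3.19 and 3.30 in control, 2.12, 3.10 and 3.26 in stress, and 2.04, 2.11 and 2.23 in stress with exercise. No array took a value between 2.23 and 2.99: the controls and stress 1 to 4 lay above that gap, and stress 5 and 6 (2.12 to 2.13) and the rats with exercise below it. The difference from control was -1.05 ± 0.18 (SE), a 2.08-fold lower signal that passed in limma. Rpl17l5, a copy of Rpl17, had levels of 4.81, 4.84 and 4.94 in control, 4.00, 4.77 and 4.88 in stress, and 3.90, 3.98 and 4.02 in stress with exercise. Stress 1 to 4 (4.74 to 4.88) overlapped the controls and stress 5 and 6 (4.00 to 4.13) lay far below them, touching the rats with exercise, which did not overlap the controls. The difference was -0.90 ± 0.13 (SE), 1.86-fold lower.

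The remaining paralogues that fell changed by less than 0.5. Rpl27al1, a copy of Rpl27a, had levels of 5.17, 5.27 and 5.40 in control, 4.86, 5.25 and 5.29 in stress, and 4.84, 4.91 and 4.98 in stress with exercise, and differed from control by -0.36 ± 0.07 (SE). Rpl22l1, the conserved partner of Rpl22 that can take its place in the ribosome, had levels of 3.91, 3.97 and 4.12, then 3.67, 3.91 and 3.99, then 3.60, 3.65 and 3.73, in the same order of groups. In both genes stress 5 and 6 were the 2 lowest stress rats (4.86 to 4.98, and 3.67 to 3.81), and the groups with exercise and without any intervention did not overlap. Rpl22l1 differed by -0.35 ± 0.06 (SE), 1.27-fold lower, and its other probe by -0.17 (limma adjusted p = 0.057). Rpl36al1, a copy of Rpl36a, had levels of 4.55, 4.60 and 4.67 in control, 4.44, 4.56 and 4.59 in stress, and 4.37, 4.41 and 4.43 in stress with exercise. It was the 1 called paralogue in which the rats with exercise lay below every rat of both other groups, stress 5 and 6 included. The margin was narrow, with stress 5 at 4.436 and the highest rat with exercise at 4.432. The difference from control was -0.20 ± 0.03 (SE).

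**Figure D1:**
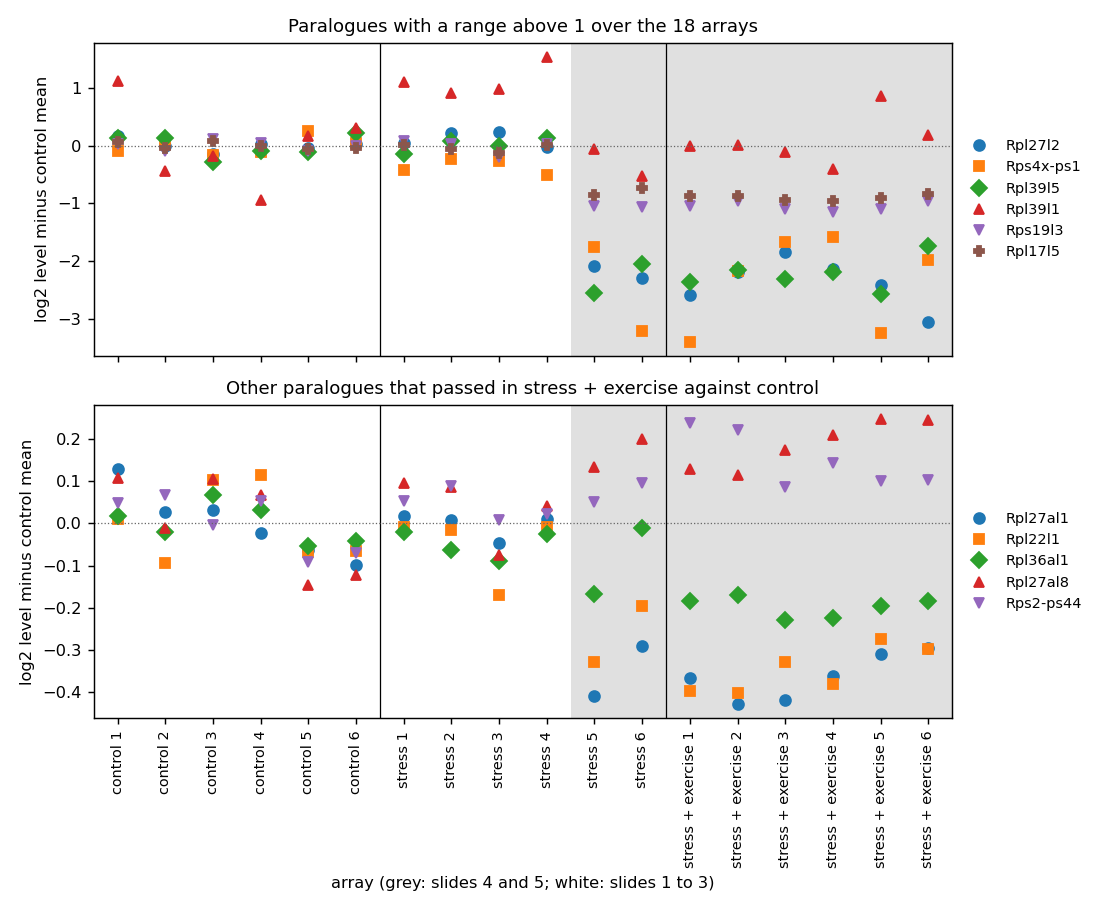
Levels of 11 paralogues by array, as the log2 level minus the gene's control mean (vertical), with the 18 arrays in order of group along the horizontal axis, 1 symbol per rat and gene, and slide set 2 shaded grey. In the upper panel stress 5 and 6 lie near the rats with exercise and below the controls, except in Rpl39l1, where they lie within the control range. For Rpl27l2 the rats with exercise average -2.37.

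The paralogues that rose were Rpl27al8 and Rps2-ps44. Rpl27al8, another copy of Rpl27a, had levels of 4.81, 4.98 and 5.06 in control and 5.07, 5.15 and 5.20 in stress with exercise, a difference of 0.19 (limma adjusted p = 0.017), so copies of the same parent moved in opposite directions. Rps2-ps44 had levels of 3.88, 4.00 and 4.04 in control and 4.06, 4.10 and 4.21 in stress with exercise (difference 0.15, limma adjusted p = 0.010). In both, the groups did not overlap. The 6 other tested paralogues without a call in any comparison (Rpl23al8, Rpl35al1, Rpl37al3, Rpl37l1, Rplp1l1 and Rps12l4) differed from control by -0.28 to 0.13, with a lowest limma adjusted p of 0.067. Rpl39l1, a second copy of Rpl39, differed by 0.09 (limma adjusted p = 0.886).

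Among the main genes of the large subunit, Rpl29 and Rpl6 rose and Rpl9, Rpl13 and Rpl23a fell. Rpl29 had levels of 6.06, 6.17 and 6.20 in control, 6.08, 6.22 and 6.43 in stress, and 6.39, 6.40 and 6.45 in stress with exercise. The rats with exercise were above all controls, stress 1 to 4 (6.08 to 6.23) overlapped the controls, and stress 5 and 6 (6.37 to 6.43) with the rats with exercise. The difference was 0.27 ± 0.05 (SE, limma adjusted p = 0.0015), 1.20-fold higher.

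Rpl6 behaved alike, with levels of 5.12, 5.16 and 5.21 in control, 5.19, 5.21 and 5.34 in stress, and 5.33, 5.35 and 5.40 in stress with exercise. Its stress 5 and 6 rats (5.33 to 5.34) stood apart from stress 1 to 4 (5.19 to 5.21). It differed from control by 0.20 ± 0.03 (SE, limma adjusted p = 0.0009), 1.15-fold. Rpl9 had levels of 6.72, 6.79 and 6.89 in control and 6.61, 6.65 and 6.70 in stress with exercise, and fell by 0.15 on the log2 scale (limma adjusted p = 0.023). Rpl13, with 7.12, 7.20 and 7.24 in control and 6.99, 7.04 and 7.10 in stress with exercise, fell by 0.14 (limma adjusted p = 0.020). The groups did not overlap in either gene. Rpl23a, whose product sits beside the mouth of the exit tunnel, fell by 0.11 (limma adjusted p = 0.043).

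In the small subunit 6 main genes rose and 0 fell, against 2 and 3 in the large subunit. These counts are not scaled to the number of genes in each subunit, and among all genes 18.1% rose and 9.84% fell. Rps18 had levels of 6.07, 6.24 and 6.27 in control, 6.16, 6.33 and 6.41 in stress, and 6.31, 6.39 and 6.43 in stress with exercise, without overlap between the first and the last (difference 0.17, limma adjusted p = 0.010). Rps27l, the partner of Rps27 and a target of p53, had levels of 2.16, 2.21 and 2.28 in control, 2.20, 2.29 and 2.39 in stress, and 2.30, 2.37 and 2.47 in stress with exercise (difference 0.16, limma adjusted p = 0.0079). Rps3a rose by 0.14, Rps14 by 0.11 and Rps16 by 0.10, the last a 1.07-fold change. Whether the subunits differed was not tested.

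Of the genes often used as references or read as landmarks, Rps18 passed, as given above, and those that follow did not. Rplp0 had levels of 7.31, 7.46 and 7.49 in control, 7.29, 7.53 and 7.57 in stress, and 7.50, 7.54 and 7.56 in stress with exercise (difference 0.12, limma adjusted p = 0.118). Rps6, the target of S6 kinase, had levels of 5.55, 5.61 and 5.64, then 5.56, 5.63 and 5.70, then 5.63, 5.67 and 5.74 (difference 0.07, limma adjusted p = 0.106). The stalk proteins Rplp1 and Rplp2 differed by -0.08 and 0.00, Rpl13a by -0.05 and the ubiquitin fusion gene Rps27a by 0.02. Rpl3l differed by 0.50 with overlapping groups (limma adjusted p = 0.147): its levels were -5.84, -5.40 and -4.25 in control and -5.30, -4.82 and -4.29 in stress with exercise. The 44 main genes not named by the rule lay between -0.15 and 0.14, with a lowest limma adjusted p of 0.056.

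**Figure D2:**
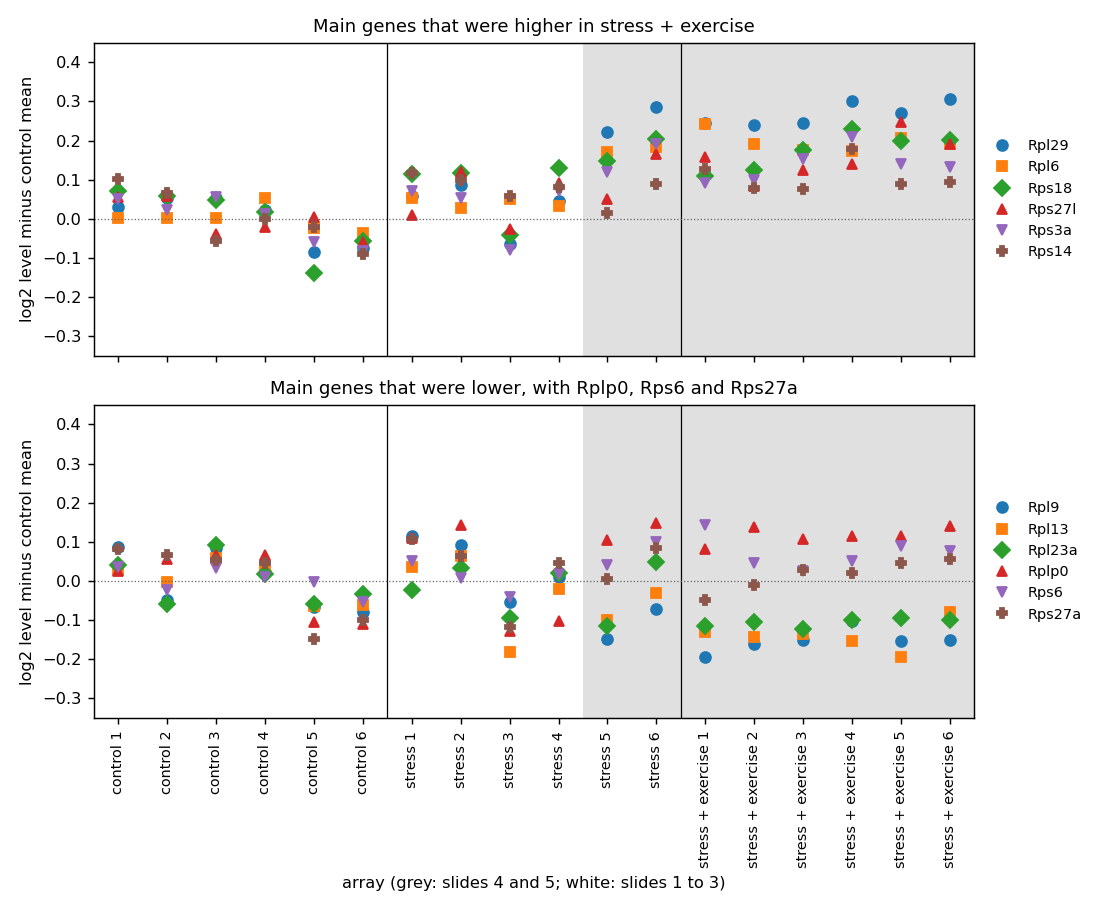
Levels of 12 main genes by array, as the log2 level minus the gene's control mean (vertical), with the 18 arrays in order of group along the horizontal axis, 1 symbol per rat and gene, and slide set 2 shaded grey. Rpl29, the main gene that rose most, averages 0.27 in the rats with exercise, and Rpl9 averages -0.15.

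Stress with exercise was set against stress to ask what the wheel added in restrained rats. Here 6 of the 95 genes passed in limma, all of them paralogues and all lower, against 3.28% of all genes (1.60% higher and 1.68% lower); 0 main genes passed, with 7 at an unadjusted p under 0.05. The differences were -1.72 ± 0.40 for Rpl27l2 (limma adjusted p = 0.040), -1.46 ± 0.40 for Rpl39l5 (0.049), -0.69 ± 0.18 for Rps19l3 (0.043), -0.61 ± 0.13 for Rpl17l5 (0.038), -0.23 ± 0.06 for Rpl22l1 (0.043) and -0.14 ± 0.03 for Rpl36al1 (0.041), each ± SE with n = 6 per group. The ranges of the groups overlapped in the first 5 of these through stress 5 and 6. In Rpl36al1 they did not overlap, by a narrow margin. Rps4x-ps1 was at least 1.52-fold lower (limma adjusted p = 0.102), and Rpl27al1 differed by -0.24 (limma adjusted p = 0.057). Among main genes, Rpl29 differed by 0.16 (limma adjusted p = 0.073), Rpl6 by 0.11 (0.069), Rpl9 by -0.14 (0.080), Rpl3l by 0.18 (0.694) and Rps4y2, a copy of Rps4x, by -0.21 (0.201).

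These 6 calls moved with single arrays. With any 1 control array, any of stress 1 to 4 or any array of stress with exercise left out, 0 genes passed, except that Rpl17l5 passed without control 2, 3 or 5. Without stress 5 the count was 10 and without stress 6 it was 11. With both left out, a choice made after the values were seen, 15 of 95 passed (4 higher and 11 lower), against 26.5% of all genes (17.1% higher and 9.35% lower). The 15 genes included Rpl27l2 at -2.49, Rpl39l5 at -2.23, Rps4x-ps1 at -1.98 and Rpl39l1 at -1.04, and among main genes Rpl29 at 0.24, Rps28 at 0.16 and Rpl6 at 0.16 higher and Rpl9 at -0.19 and Rps4y2 at -0.30 lower. Between stress with exercise and control the same choice gave 22 genes, against 32.0% of all genes. In that fit every stress rat was on slide set 1 and every rat with exercise on slide set 2, so slide set and group cannot be told apart.

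Stress against control asks what restraint did. In limma 0 of the 95 genes passed, as did 0.00% of all genes; at an unadjusted p under 0.05 there were 3 main genes and 2 paralogues, beside 1596 of all genes. The lowest adjusted p of a member was 0.364. The median difference was 0.03 for main genes, -0.06 for paralogues and 0.02 for all genes, and 58 of 78 main genes and 7 of 17 paralogues lay above 0. Among the largest differences were Rps4x-ps1 at -1.07 (limma adjusted p = 0.389), Rpl39l5 at -0.76 (0.446), Rpl27l2 at -0.65 (0.521), Rpl39l1 at 0.66 (0.468), Rpl3l at 0.32 and Rps4y2 at 0.16. In Rps4x-ps1, Rpl39l5 and Rpl27l2 stress 5 and 6 lay below all other stress rats and all controls. Within slide set 1, where stress 1 to 4 and the controls lay on different slides, so that slide and group cannot be told apart, Rpl27l2 differed by 0.12 ± 0.07 and Rps4x-ps1 by -0.36 ± 0.09 (SE). Rpl39l1 differed by 1.13 ± 0.34 there, and its levels were -5.30, -4.37 and -3.24 in control and -3.44 to -2.82 in stress 1 to 4.

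The slide sets were compared inside the stress group, as stress 5 and 6 minus stress 1 to 4. These arrays share a treatment and have no array in common with the comparison of stress with exercise and control. Of the 95 genes 10 passed in limma, against 16.5% of all genes (9.66% higher and 6.80% lower): 8 paralogues were lower, and Rpl29 and Rpl6 were higher. Rpl27l2 differed by -2.32 ± 0.22, Rpl39l5 by -2.32 ± 0.19, Rps4x-ps1 by -2.12 ± 0.46 (at least 1.70-fold), Rpl39l1 by -1.43 ± 0.42, Rps19l3 by -1.04 ± 0.08, Rpl17l5 by -0.76 ± 0.06, Rpl27al1 by -0.35 ± 0.06 and Rpl22l1 by -0.21 ± 0.07 (SE, 2 against 4 rats). Rpl29 differed by 0.22 ± 0.05 (limma adjusted p = 0.0082) and Rpl6 by 0.14 ± 0.04 (limma adjusted p = 0.017). Rpl36al1 differed by -0.04 (limma adjusted p = 0.626) and Rpl9 by -0.15 (limma adjusted p = 0.094). Without stress 6 the count was 5, all lower. With scan day as a block, which the other groups make estimable, 9 genes passed (2 higher and 7 lower). By slide, the mean level of Rpl27l2 was -2.91, -3.03 and -2.87 on slides 1 to 3 and -5.28 and -5.35 on slides 4 and 5, and that of Rpl29 was 6.19, 6.13 and 6.18 and then 6.40 and 6.43. For Rpl39l1 the slide means were -4.02, -4.52 and -3.22 and then -4.50 and -4.22. Slide 3 thus stood above the other slides of both sets in Rpl39l1.

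Of the 21 genes called between stress with exercise and control, 9 were also called for the slide set, all in the same direction, which is 42.9% of the 21 and 90.0% of the 10. For all genes the shared calls in the same direction were 1355, or 37.1% of 3649 and 63.1% of 2148, with 2 in opposite directions. By the brightest probe of each gene, 7 paralogues were shared (70.0% of 10 and 87.5% of 8) and 2 main genes (18.2% of 11). Across genes, which are not independent replicates and here share the arrays' processing, Pearson's r between these differences was 0.90 over the 17 paralogues, 0.53 over the 78 main genes and 0.56 over 13051 genes. Spearman's rho was 0.82, 0.60 and 0.55.

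**Figure D3:**
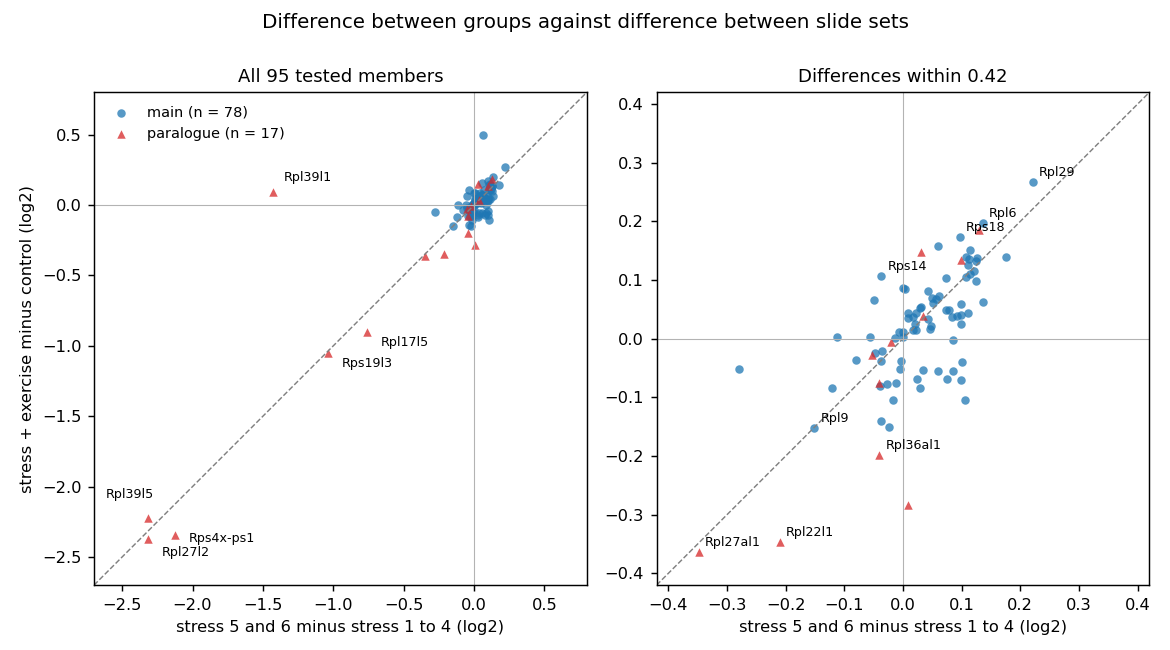
Difference between stress with exercise and control (log2, vertical) against the difference between slide sets inside the stress group (log2, horizontal), 1 point per gene (circles for main genes, triangles for paralogues); the dashed line marks equal values and the right panel shows differences within 0.42. The paralogues Rpl27l2, Rpl39l5 and Rps4x-ps1 lie beyond -2 on both axes, and the main genes gather near 0.

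With slide set as a term in the fit, 0 of the 95 genes passed in any of the 3 comparisons, as did 1 of all genes in stress with exercise against control, 1 in stress with exercise against stress and 0 in stress against control. The 21 genes called before then differed between stress with exercise and control by -0.22 to 0.14, with a lowest limma adjusted p of 0.423. The difference became smaller in 20 of the 21, the exception being Rps14 (0.11 before and 0.14 with the term). Only the stress group lay on both slide sets. The value with the term is therefore the earlier difference minus the slide-set difference inside the stress group. It is not a separate result, and it assumes that the slide set acts alike in all groups. Rpl27l2 went from -2.37 to -0.05 ± 0.27, Rpl39l5 from -2.22 to 0.09 ± 0.23, Rps4x-ps1 from -2.34 to -0.22 ± 0.55 and Rps19l3 from -1.05 to -0.01 ± 0.09 (SE). For Rpl17l5 the value was -0.14 ± 0.07, for Rpl22l1 -0.14 ± 0.08, for Rpl36al1 -0.16 ± 0.06, for Rpl29 0.05 ± 0.06 and for Rpl6 0.06 ± 0.04. The standard error of these 21 genes had a median of 0.045 without the term and 0.069 with it; for the 10 paralogues among them it went from 0.100 to 0.087.

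Within slide set 2, the 6 rats with exercise were set against stress 5 and 6, which shared slide 4 with 2 of them; the other 4 were alone on slide 5. Rpl27l2 differed by -0.18 ± 0.29, Rpl39l5 by 0.08 ± 0.21, Rps19l3 by 0.01 ± 0.06, Rpl17l5 by -0.10 ± 0.06, Rpl22l1 by -0.09 ± 0.06 and Rpl36al1 by -0.11 ± 0.05 (SE), and 0 of the 95 genes passed in limma. With 2 stress rats on that side, a p that misses the threshold does not show that the groups were alike. For Rpl39l1 the difference between stress with exercise and control grew with the slide-set term, from 0.09 to 1.52 ± 0.51 (SE, limma adjusted p = 0.385).

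**Figure D4:**
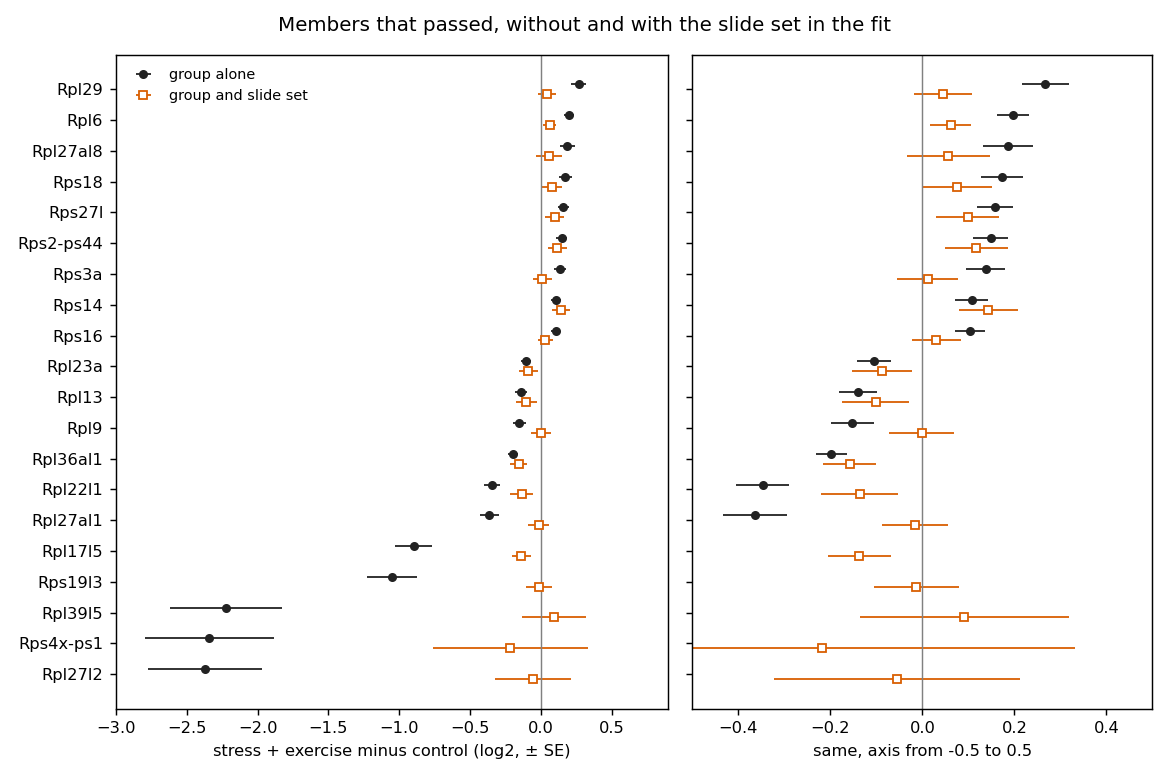
Difference between stress with exercise and control (log2) for 20 of the 21 called genes without and with slide set as a term, as points with ± SE bars (filled circles for group alone, open squares with slide set in the fit); the right panel shows -0.5 to 0.5 and leaves out larger points. Rpl27l2 moves from -2.37 to -0.05, and the genes shown lie between -0.22 and 0.14 with the term.

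Probes of the same gene did not always move together. Of the main genes, 54 had several tested probes, and in 25 of them at least 1 probe was called between stress with exercise and control, against 43.2% of all genes with several tested probes. Rpl29 was the 1 gene in which every probe passed in the same direction (0.27, 0.12 and 0.11). Rpl13 and Rpl7a, both of the large subunit, had probes called in both directions, as had 2.99% of all such genes; the 3 probes of Rpl13 gave -0.14, 0.18 and -0.18. Rpl27a gave 0.13 and 0.07 on its 2 brightest probes and -0.55 on the third, well above background on all 18 arrays (limma adjusted p = 0.001), the widest spread among main genes at 0.67, where the median spread was 0.10. Rpl9 fell on its brightest probe (-0.15) and lay between -0.07 and 0.02 on the 4 others, and Rps16 gave 0.10 and -0.02. Rps18 gave 0.17, 0.10 and 0.11. For the slide set inside the stress group, 5 of the 190 tested probes of main genes were called higher and 7 lower. Of all genes, by their brightest probe, 9.66% and 6.80% were called. The third probe of Rpl27a was among the lower ones (-0.51 ± 0.06, SE, limma adjusted p = 1.7e-05). Probe sequences were not used here, so how much of a probe's signal came from a near-identical copy was not tested, for parents and paralogues alike.

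**Figure D5:**
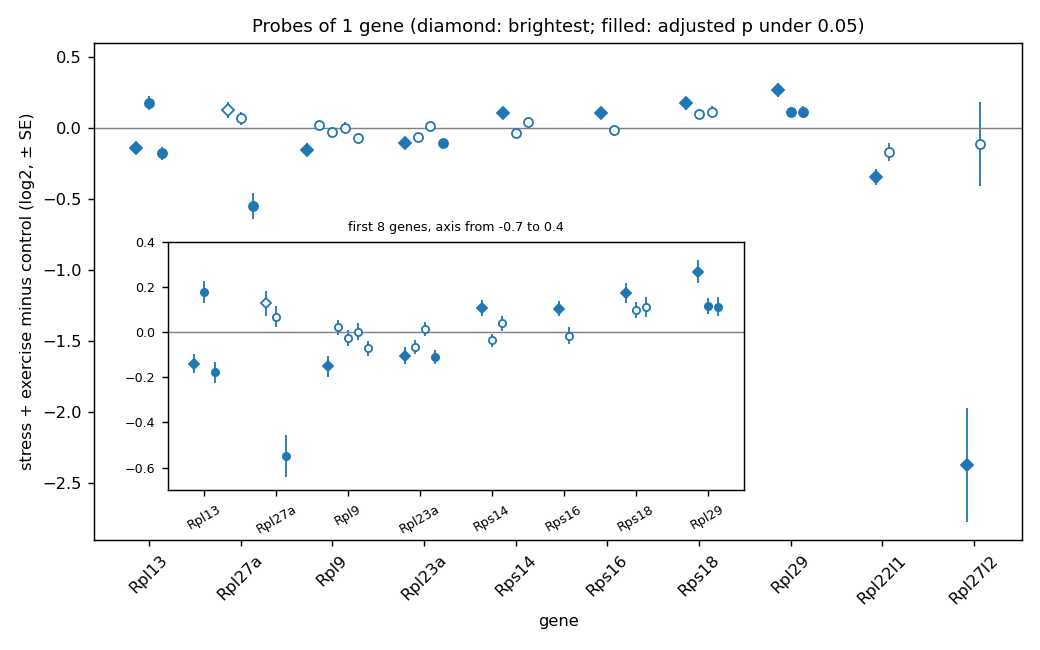
Difference between stress with exercise and control (log2) for each tested probe of 10 genes, with ± SE bars, a diamond for the brightest probe and filled symbols for an adjusted p under 0.05; the inset enlarges the first 8 genes. Rpl13 shows probes on both sides of 0 (-0.14, 0.18 and -0.18), and the third probe of Rpl27a lies at -0.55.

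The pyrimidine run at the start was set beside these calls as a description. Of the main genes with a window, a run of at least 5 was present in 4 of 7 that rose between control and stress with exercise (57.1%), in both of the 2 that fell and in 27 of 53 that did not pass (50.9%). Rps18, printed above with its long run, was among those that rose, and Rplp0 and Rpl27a, with runs too, did not pass. Of the paralogues that fell, 6 had a window, and 0 of 6 had such a run, as the printed starts of Rps19l3, Rpl17l5 and Rpl27l2 show.

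The other genes of the pathway were read from fixed lists, whose counts stand beside the shares of all genes: 18.1% higher and 9.84% lower between control and stress with exercise, and 9.66% and 6.80% for the slide set. Of ribosomal protein genes that the symbol rule leaves out, Fau (0.03) and the scaffold Rack1 (0.07, limma adjusted p = 0.129) did not pass between control and stress with exercise. Of 39 translation factors 37 were tested, and 11 rose and 4 fell, among them the initiation factors Eif5b (0.23) and Eif3b (0.26), the poly(A)-binding protein Pabpc1 (0.24) and the elongation factor subunit Eef1d (0.15), all higher. Of 60 ribosome biogenesis genes 53 were tested, and 14 rose and 8 fell, with Bop1 (0.32), Nop2 (0.21) and Imp3 (0.20) higher and the kinase Riok1 lower (-0.28). Of 26 genes of mTORC1 and its regulators 22 were tested, and 9 rose and 0 fell. Those that rose included Tsc2, which restrains mTORC1 (0.35), Akt1s1, an inhibitory partner of it (0.27), Maf1, a repressor of RNA polymerase III (0.21), and Myc (0.19). Rptor, Mlst8 and Rps6ka1 were also among the 9, so the rise was not limited to inhibitors. Between stress and stress with exercise Pabpc1 (0.19, limma adjusted p = 0.039), Tsc2 (0.22, 0.038) and Maf1 (0.15, 0.049) rose. For the slide set inside the stress group, 1 translation factor (Eif5, 0.18), 7 biogenesis genes and 5 mTORC1 genes were higher and 1 biogenesis gene was lower; the mTORC1 genes were Rptor (0.51), Mlst8 (0.22), Mycl (0.84), Tsc2 (0.22) and Rps6ka1 (0.29). Between control and stress 0 of any list passed (lowest limma adjusted p 0.244, for Myc at 0.14), and with slide set as a term 0 of any list passed in any comparison.

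Markers of neighbouring tissue differed between the same arrays. Of 6 pituitary markers 3 were tested (Gh1, Prl and Tshb were not), and their summed level ran from -1.14 to 4.73 in control, from 4.33 to 5.50 in stress 1 to 4, from -1.31 to -1.19 in stress 5 and 6 and from -1.18 to 3.96 in stress with exercise. Of these, Cga, the subunit shared by the pituitary glycoprotein hormones, and Lhb passed as lower in stress 5 and 6 than in stress 1 to 4; no size is given for Cga, which was well above background on 14 of 18 arrays. Rpl27l2 ranged from -3.14 to -2.83 in the control rats, and whether it moved with the pituitary sum was not tested. The summed level of 6 choroid plexus markers was 2.22 to 6.81 in control, 1.76 to 7.54 in stress 1 to 4, 1.44 to 2.38 in stress 5 and 6 and 1.73 to 2.86 in stress with exercise, with 0 called. Between control and stress with exercise, where 18.1% of all genes rose and 9.84% fell, 4 of 5 striatum markers rose (summed level 3.20 to 3.35 against 3.32 to 3.99), as did 3 of 6 oligodendrocyte markers (9.50 to 9.68 against 9.62 to 9.82) and 2 of 6 neuronal markers (Nefl and Rbfox3). Of 6 microglial markers Cx3cr1 and Itgam fell and 0 rose, although the median difference of the list was 0.08. Of 13 hypothalamic markers Lhx6 and Trh fell, of 6 astrocyte markers 1 rose and 1 fell (Aldh1l1 and Gja1), of 3 thalamus markers Cplx1 rose, and 0 of the endothelial, choroid plexus, pituitary and erythrocyte markers passed. Their part in the differences of the ribosomal protein genes was not tested.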

How the data were processed

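Arrays were read with Agilent Feature Extraction, version 12.1.0.3 per the file headers and 9.1 per the submitters' processing notes. The deposited intensity is the background-corrected processed signal of each spot, per the file headers. Spots of a probe were averaged, log2 was taken and each array's 75th percentile subtracted. Probes well above background on at least 5 of 6 arrays of a group were kept (31293 of 45598). Probes were named by transcript accession through a RefSeq table of assembly GRCr8 (21220 matched 1 symbol, 0 several and 24378 none). A gene was represented by its brightest probe. Groups were compared with limma 3.58.1 (R 4.3.3; lmFit and eBayes, 18 arrays, group as the term), two-sided, with Benjamini-Hochberg adjustment over all tested probes and a threshold of 0.05. The slide-set difference came from a fit that splits the stress group by slide set. Where 0 arrays of a group had a probe well above background, only a bound is given, from the lowest signal well above background on each array. The fitting code was tested on simulated data. Figures used python 3.11.15, numpy 2.4.6, pandas 2.3.3 and matplotlib 3.10.9.

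The number of arrays, 6 per group, limits the precision. The labels' extraction and labelling protocols give different amounts of RNA per array. Rats were not treated as paired by replicate number in the main fit. The correlations of same-numbered deviations from the group mean ran from -0.25 to 0.19. These deviations still hold the slide layout, so they cannot show whether the numbers pair rats. The members and lists were chosen with earlier results of these data known. Named genes were those called in a comparison or for the slide set with their parents, the 3 largest differences per direction, the 4 widest ranges and fixed landmark and conserved paralogue genes; a few of these genes are not reported here. Alternatives were other scaling and background correction, dim-probe filters, slide and scan-day terms, other rules for paralogues and each array left out; background correction by normexp (offset 50) used the median spot signal, as the mean was not among the columns used.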

Additional observations from a re-analysis of the deposited data

Results flagged for a closer look

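In 4 of 135 combinations of a named gene and a group, 1 rat stood apart from the other 5 by a gap that is large for the group's range; chance gives this in about 1 in 20. Rpl13a was at 7.12 in stress with exercise 3, against 7.18 to 7.19 in the others of the group. Rpl26 was at 7.33 in stress 3, against 7.52 to 7.62. Rpl27a was at 7.05 in stress 3, against 7.26 to 7.37. Rps18 was at 6.16 in stress 3, against 6.32 to 6.41. The last 3 were all low in the same array.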

How the results depend on the processing

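Counts below are genes of the 95 that passed. Stress with exercise against stress gave 6, and 0 without a filter on dim probes, with slide set as a covariate, with slide as a random block, within the slide set and with the replicate block. It gave 10 with scan day as a block and 15 with stress 5 and 6 left out, and leaving out 1 array gave 0 to 11. Stress with exercise against control gave 21, and 0 with slide set as a covariate, 9 with slide as a random block (1 higher and 8 lower), 16 with the replicate block, 22 with stress 5 and 6 left out and 17 to 29 with 1 array left out. Quantile normalization gave 31 there (15 higher and 16 lower). The slide-set comparison gave 10, and 17 with normexp (9 higher and 8 lower), 7 with the replicate block, 7 in the stress arrays alone and 5 to 11 with 1 array left out. Stress against control gave 0 under all of these. The median of paralogues minus that of main genes, -0.23 between stress with exercise and control, was -0.013 with slide set as a covariate and -0.11 with every symbol ending in l counted as a paralogue. The sign turned for Rpl39l5, to 0.081 against stress (covariate and within the set) and 0.092 against control (covariate), and for Rps19l3, to 0.0053 against stress (both). The cause was not tested. The slide-set fits remove what the layout shares with the groups, and this can include a difference between the groups themselves. A value within a slide set is not possible for stress with exercise against control. The arrays, 6 a group and 2 against 4 for the slide set, limit the precision, and Rps4x-ps1, Rpl3l and both probes of Rpl27l2 lay near background on some arrays.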
